A study of Mus musculus with 11 samples.

Results

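Translation initiation and elongation factors are the proteins that load ribosomes onto messenger RNA, find the start codon and drive the ribosome along the coding sequence. The members described here were the protein-coding genes whose symbol begins with Eif or Eef followed by a digit, apart from the genes of the eIF4E-binding proteins. This rule used names only and gave 65 genes of 31956 with a matched transcript, of which 21666 were annotated as protein-coding. Their RNA was measured by poly-A selected RNA sequencing of liver from 11 female mice, and 362 annotated transcripts belonged to them.

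The mice came from 2 conplastic strains, in which the mitochondrial genome of another strain sits on the nuclear genome of C57BL/6J. All 11 mice were thus of the C57BL/6J nuclear background and differed by strain in mitochondrial DNA. Whether any factor gene carried remaining nuclear sequence of a donor strain was not tested here. C57BL/6J-mtALR/J, called B6-mtALR here, carries the mt-Nd2 variant given in the labels as m.4738C>A, and C57BL/6J-mtBPL/J, called B6-mtBPL, carries the mt-Nd5 variant given as m.11902 T>C. B6-mtALR replicates 4 to 7 were 3 months old (n = 4) and replicates 1 to 3 were 5 months old (n = 3). B6-mtBPL replicates 1 and 2 were 3 months old (n = 2) and replicates 3 and 4 were 4 months old (n = 2). No mouse with the C57BL/6J mitochondrial genome was analysed here, so a difference between the strains has no reference side. The comparison of the 2 strains at 3 to 4 months asked whether the livers differed with the mitochondrial genome, and the comparisons of ages within a strain described what age, or anything else that set those mice apart, moved.

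Initiation begins when eIF2 carries the initiator tRNA to the small ribosomal subunit, where eIF1, eIF1A, eIF3 and eIF5 assemble with it. The eIF4F complex, made of the cap-binding protein eIF4E, the scaffold eIF4G and the helicase eIF4A, brings this assembly to the cap of the messenger RNA. After the start codon is found, eIF5B joins the large subunit, and the exchange factor eIF2B recharges eIF2 unless one of the eIF2alpha kinases has phosphorylated it. During elongation eEF1A delivers aminoacyl-tRNA, the eEF1B complex recharges eEF1A, and eEF2 moves the ribosome by a codon. Many genes of this machinery, in mammals, begin with a run of pyrimidines at the 5′ end of the messenger RNA, through which their translation follows mTORC1 activity.

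The total estimated count per mouse was 18145815 to 25074045, and 1.05% to 1.31% of it fell on the 65 genes. The hepatocyte markers summed to 79240 to 97090 TPM (transcripts per 1000000, a level scaled for transcript length and sequencing depth) in the 11 mice, against 219 to 298 for Kupffer cell, 132 to 190 for endothelial cell and 127 to 191 for stellate cell markers. Log2 counts per 1000000 (CPM) varied with transcript length to a different degree in each mouse, with slopes from -0.404 to 0.461 on log10 length. The highest slopes, 0.461 and 0.383, were those of B6-mtBPL replicates 2 and 1, the only B6-mtBPL mice of 3 months, so strain values of named genes that move by over 1.5 times with a correction for length are given with and without it. In bulk liver, fewer cells of a type and less RNA per cell cannot be told apart.

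The levels of the factors spanned a wide range and were led by elongation. Of the 65 genes, 14 had a mean above 100 TPM over the 11 mice, 35 lay between 10 and 100, 11 between 1 and 10, and 5 below 1. The 5 highest genes held 69.4% of the summed level of all 65, which was 8514 to 10391 TPM in the individual mice.

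**Figure D1:**
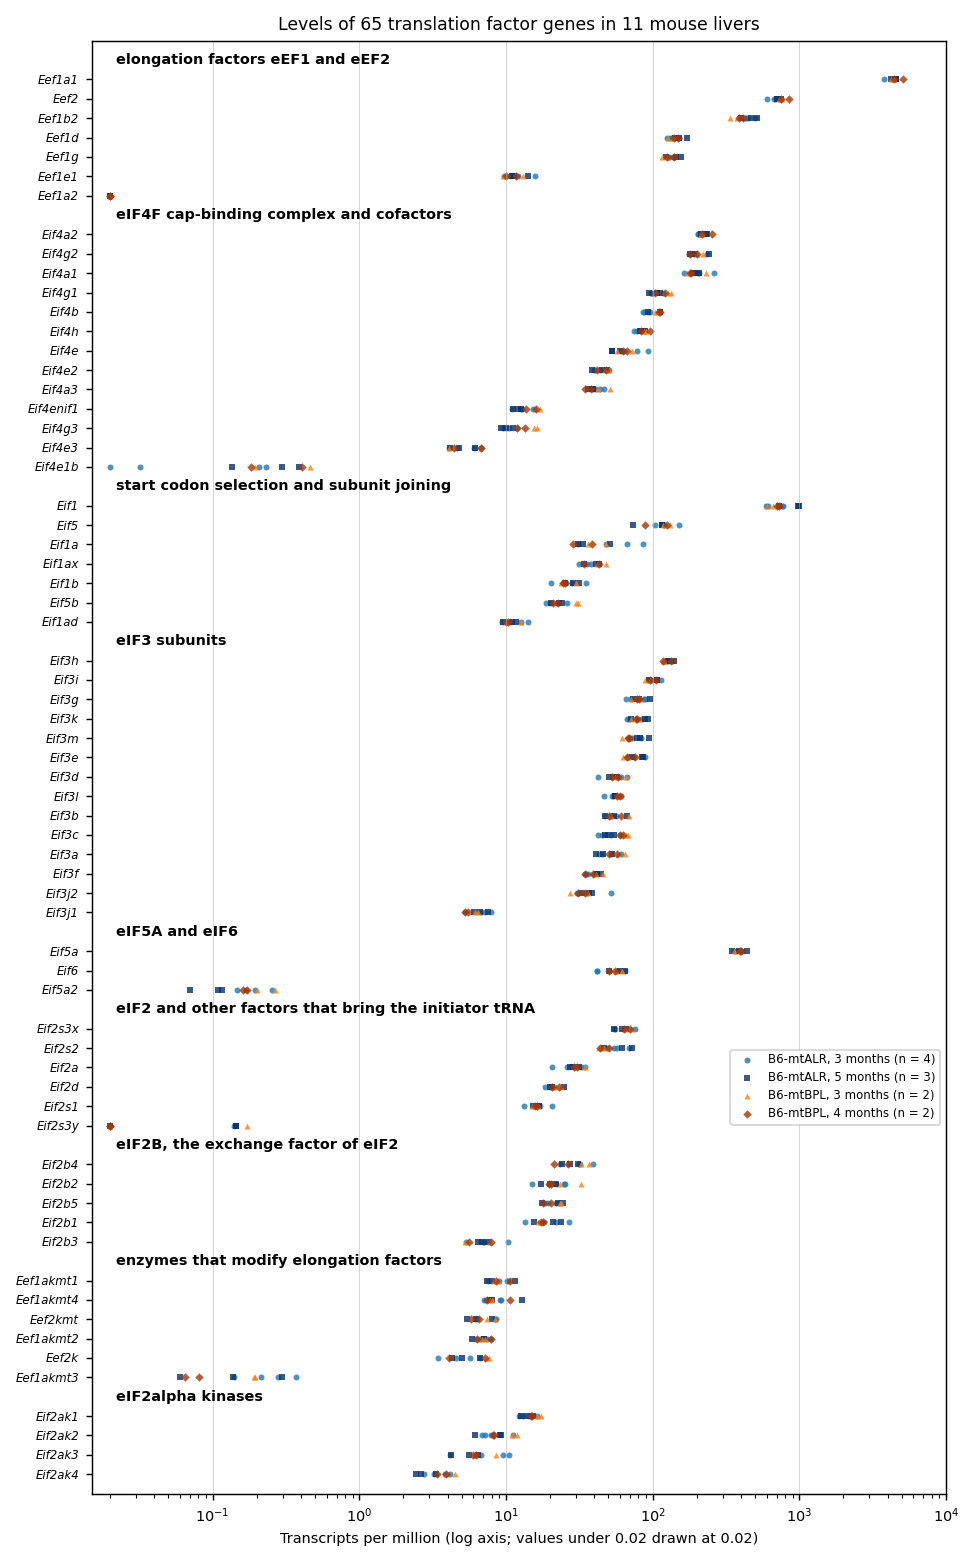
Level of each of the 65 factor genes in TPM (log axis) in each of 11 mice, grouped by role, with 1 point per mouse and symbols for strain and age. Eef1a1 lies near 4401 TPM, most eIF3 subunits lie between 35.3 and 127 TPM, and the points of the 4 groups lie on top of each other for most genes.

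Eef1a1, which encodes the main eEF1A of most tissues, had the highest level, 4401 ± 317 TPM (SD, n = 11), or 45.7% of the level of all 65 genes. It was number 30 among all protein-coding genes. Eif1, whose protein guards the choice of start codon, followed at 741 ± 138 TPM, and Eef2, the translocase, at 721 ± 61.6 TPM. Eif1 and Eef2 did not differ beyond their spread over mice in TPM. Short processed transcripts held 73.5% of the Eif1 level, and TPM divides by length. Estimated counts over the 11 mice totalled 63504 for Eif1 and 401551 for Eef2. Eef1b2, a nucleotide exchange subunit of eEF1B, stood at 428 ± 53.7 TPM, with 53.5% on transcripts annotated as targets of nonsense-mediated decay. Eif5a, which helps ribosomes through difficult stretches, stood at 387 ± 27.6 TPM. The ranges of these 2 genes over mice overlapped. Eef1b2 was above Eif5a in every B6-mtALR mouse and below it in the B6-mtBPL mice apart from replicate 3.

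The bases around the annotated starts of Eef1a1, Eif1 and Eef2, the 3 members with the highest levels, and of Eef1b2, the only member past the adjusted threshold between the strains, are shown because they differ in kind. Each line runs 5′ to 3′ from 30 bases before the RefSeq start (GRCm38.p6) to the first 30 bases of the transcript. Capitals mark TATATAA or TATAAA in the first 3 lines and CCGGAAG, letters bound by ETS factors, in the last. The marked letters begin 15 bases before the start in Eef2, but at base 24 and base 8 of the annotated transcript in Eef1a1 and Eif1, so in these 2 genes they lie after the start used.
Eef1a1, chr9:78481695-78481754, minus strand: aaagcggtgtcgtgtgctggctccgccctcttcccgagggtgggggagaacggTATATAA
Eif1, chr11:100319919-100319978, plus strand: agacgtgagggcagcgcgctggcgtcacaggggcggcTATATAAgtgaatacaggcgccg
Eef2, chr10:81176601-81176660, plus strand: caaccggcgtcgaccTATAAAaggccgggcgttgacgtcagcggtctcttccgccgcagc
Eef1b2, chr1:63176801-63176860, plus strand: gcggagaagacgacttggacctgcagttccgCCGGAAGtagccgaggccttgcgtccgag
RefSeq windows of 300 bases, from 250 bases before to 50 after the start, were matched by symbol for 51 of the 65 genes. TATAAA or TATATAA on the transcribed strand within 30 bases of the start was found in 3 of the 51 (5.88%), which were Eef1a1, Eif1 and Eef2, and in 2.86% of 27025 genes with a window. Over the whole window the same letters were found in 6 of the 51 (11.8%), close to the 11.1% of all genes. CCGGAAG on either strand of the whole window was found in 16 of the 51 (31.4%), against 9.93% of all genes. CACGTG, the E-box letters, was found in 13 of the 51 (25.5%), Eif4e, Eif4a1, Eif4g1, Eif5a and Eef2 among them, against 8.09% of all genes. The 27025 genes outnumber the 21666 protein-coding genes with a matched transcript and the 21251 genes with any count in these livers. They are thus not limited to expressed coding genes, as nearly all factor genes are. Whether these shares differ from those of expressed coding genes was not tested. A match of letters describes the window and shows no binding.

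A C followed by 4 pyrimidines at the 5′ end of an annotated coding transcript, the form of the start described above, was found for 9 of the 65 genes (13.8%), against 4.5% of 21579 coding genes. The transcripts of this form with the highest levels are shown by their first 20 bases, with the opening run of pyrimidines in capitals.
Eef1b2-209: CTTTTTTTCCCTCagcgctg
Eif3f-201: CTCTTTCTCggcaagatggc
Eif4a2-224: CTTTTCagtcgggcgctgag
Eif2s1-201: CTCTTggttgactaaaactt
Eif3m-202: CTTTTCCggtcggcgtgttt
The run was 13 bases in Eef1b2-209, 9 in Eif3f-201, 7 in Eif3m-202, 6 in Eif4a2-224 and 5 in Eif2s1-201. These transcripts carried 40.9%, 90.9%, 15.1%, 12.5% and 100% of the TPM of their genes. The matching transcripts of Eef1d, Eif2b4, Eif2s3x and Eif4g2 carried little, from 0.456% in Eif4g2 to 3.35% in Eef1d. A gene counted if any of its annotated coding transcripts had this start, so genes with more transcripts had more chances to match. Whether the share differs from that of genes with as many transcripts, or from that of expressed coding genes, was not tested. The starts are those of the annotation and were not measured by these libraries.

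Paralogs of the same role differed in level in ways that held in every mouse. Eif1 exceeded Eif1b 27.3-fold in TPM (21.9 to 34.7 over the 11 mice), and Eif5a exceeded Eif5a2 by 1340-fold to 6250-fold. The Eif1 value includes its short processed transcripts, and estimated counts over the 11 mice totalled 63504 for Eif1 and 3733 for Eif1b. Eif4g2, which encodes a shorter relative of eIF4G without the eIF4E-binding part, was 1.82-fold above Eif4g1 (1.60 to 2.30), and Eif4g1 was 9.32-fold above Eif4g3 (7.77 to 11.5). Eif4e was 12.3-fold above Eif4e3 and 1.45-fold above Eif4e2, the latter encoding a cap-binding protein that represses translation. Eif4a2 and Eif4a1, the helicases of eIF4F, were near each other, with Eif4a2 higher in 8 of 11 mice and a ratio of 0.827 to 1.41. Eif1a and Eif1ax, both encoding eIF1A, also crossed, with Eif1a higher in 5 of 11 mice.

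Among the 3 subunits of eIF2, Eif2s1 (alpha) was the lowest at 16.2 ± 1.83 TPM, with Eif2s2 (beta) 3.33-fold and Eif2s3x (gamma) 3.94-fold above it. Of the eIF2alpha kinases, Eif2ak1, which responds to haem shortage, was the highest at 14.7 ± 1.62 TPM. Eif2ak2, the kinase activated by double-stranded RNA, stood at 8.84 ± 1.90, Eif2ak3, the kinase of the endoplasmic reticulum, at 6.74 ± 2.03, and Eif2ak4, the sensor of amino acid shortage, at 3.47 ± 0.662. The ranges of the middle pair over mice overlapped. Within a mouse Eif2ak2 was the higher of these 2, apart from B6-mtALR replicate 4, at 7.89 against 9.52 TPM. The eIF3 subunits apart from Eif3j1 lay between 35.3 and 127 TPM, and Eif3j1 stood at 6.43 ± 0.895 TPM.

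Eef1a2, the eEF1A of muscle and nerve, was listed at 0 in all 11 mice. Eif2s3y, the Y-linked copy of the eIF2 gamma gene, was at 0 in 7 of these 11 female mice and at or below 0.171 TPM in the others. Eif4e1b, known from oocytes, and Eif5a2 also had mean levels under 1 TPM, as did Eef1akmt3, a lysine methyltransferase of eEF1A. Over the 60 genes above 1 TPM the median coefficient of variation across mice was 13.4%. Eif1a varied most of the genes above 10 TPM, with a coefficient of variation of 38.8% and values from 28.6 to 85.9 TPM.

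The strain comparison set the 4 B6-mtALR mice of 3 months against the 4 B6-mtBPL mice of 3 to 4 months in edgeR's quasi-likelihood test with age as a covariate. The fitted fold change stands for 3 months, where B6-mtBPL has 2 mice. Of the 65 genes, 61 had enough counts to be tested, and Eef1a2, Eif2s3y, Eif4e1b and Eef1akmt3 did not. Eef1b2 was the only factor gene with a Benjamini-Hochberg adjusted p under 0.05, and it was higher in B6-mtALR. This was 1 of 61 (1.64%), where 2.38% of 13372 genes passed the test and 0.935% passed it as higher in B6-mtALR.

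Eef1b2 had 194, 215, 174 and 193 CPM in B6-mtALR replicates 4 to 7, and 134, 122, 164 and 163 in B6-mtBPL replicates 1 to 4. Every B6-mtALR mouse of 3 months was above every B6-mtBPL mouse, and the lowest values were the B6-mtBPL mice of 3 months. The log2 fold change was 0.60 ± 0.12 (SE), with an adjusted p of 0.0368 from edgeR. With the correction for transcript length it was 0.30, with an adjusted p of 0.191. Eef1b2 is short, with a mean transcript length of 738 bases. The call was also lost, with fold changes of 0.53 to 0.67, when B6-mtALR replicate 4 or 5 or B6-mtBPL replicate 1, 2 or 3 was left out, where the edgeR adjusted p was 0.11, 0.0772, 0.224, 0.385 and 0.0516. In all, the call was lost in 12 of 22 alternatives, with a lowest fold change of 0.20. Without the age term the value was 0.41 (adjusted p = 0.09), and in all 11 mice with age 0.41 (adjusted p = 0.104), both in edgeR.

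Short of the adjusted threshold, the factor genes lay mostly on 1 side. The fitted fold change was above 0, meaning higher in B6-mtALR, for 50 of 61 genes (82%), against 49.6% of all genes tested. The median log2 fold change was 0.23 over the 61 genes and -0.0032 over all. An unadjusted p under 0.05 was reached by 15 of the 61 genes (24.6%), all higher, while 21.4% of all genes reached it, 10.2% as higher and 11.2% as lower. Without B6-mtBPL replicate 2, of 62 factor genes tested 47 lay above 0, against 49.7% of all genes, and the median was 0.11. In that fit 2 of the 62 had an unadjusted p under 0.05, against 10.3% of all genes. The values of the 4 mice of B6-mtALR and of the 4 of B6-mtBPL did not overlap for 9 of the 61 (14.8%), against a background of 12.1%. Of these 6 were higher in B6-mtALR (9.84%, against 5.7%) and 3 were lower (4.92%, against 6.43%).

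**Figure D2:**
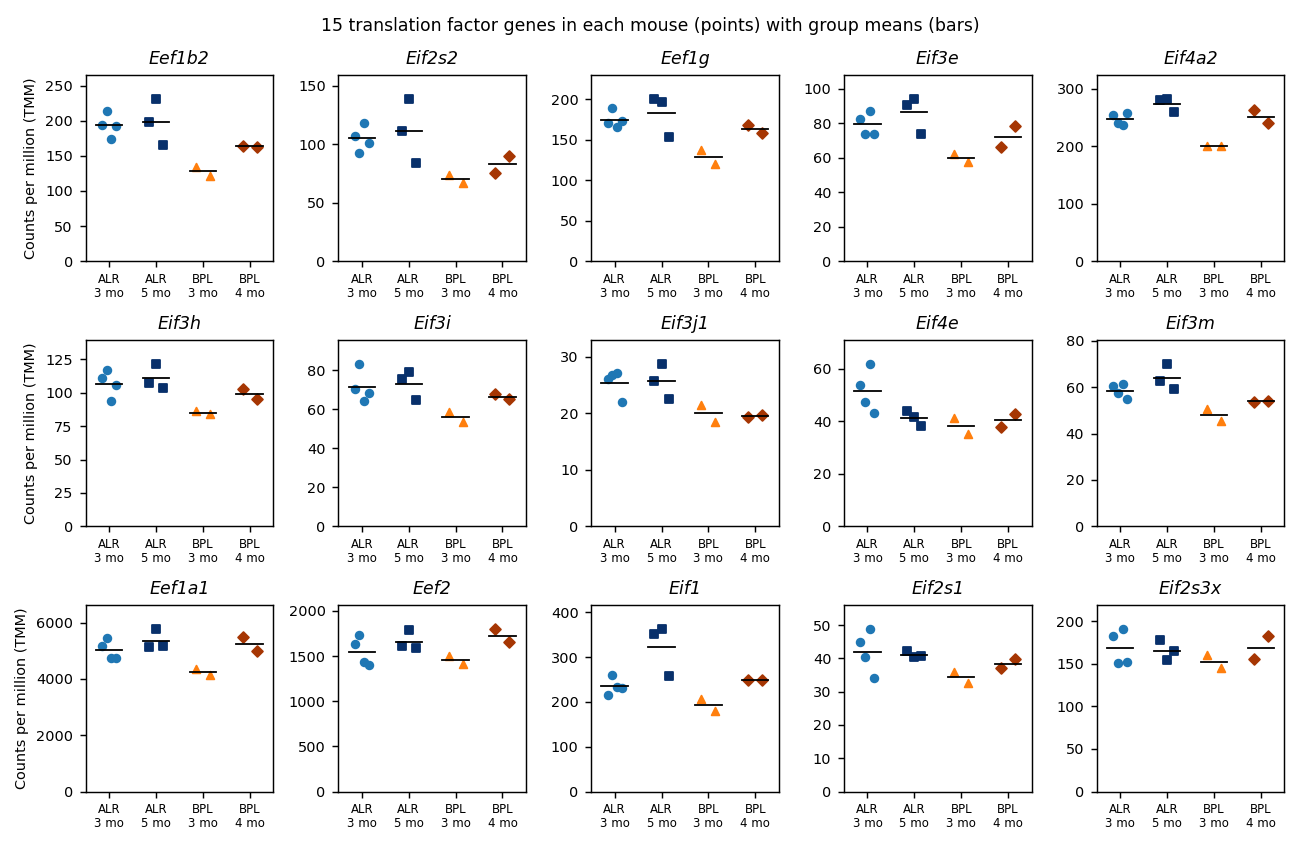
CPM (linear axis from 0) of 15 factor genes in each of 11 mice, with 1 point per mouse and a bar at the mean of each strain and age group. For Eef1b2 the 4 B6-mtALR mice of 3 months (174 to 215) are above all 4 B6-mtBPL mice (122 to 164), and for most of the 15 genes the 2 B6-mtBPL mice of 3 months are the lowest group.

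Fold changes followed transcript length over all genes, and the median length of the factor genes was below that of all genes tested. Spearman's rho between the log2 fold change and mean transcript length was -0.47 across 13372 genes and -0.477 across the 61, which are genes of the same 8 libraries and not independent points. The median length was 1910 bases for the 61 genes and 2388 for all. Among genes under 1539 bases, the median log2 fold change was 0.25 for 21 factor genes and 0.20 for all. Among those over 3604 bases it was -0.05 for 11 factor genes and -0.24 for all.

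**Figure D3:**
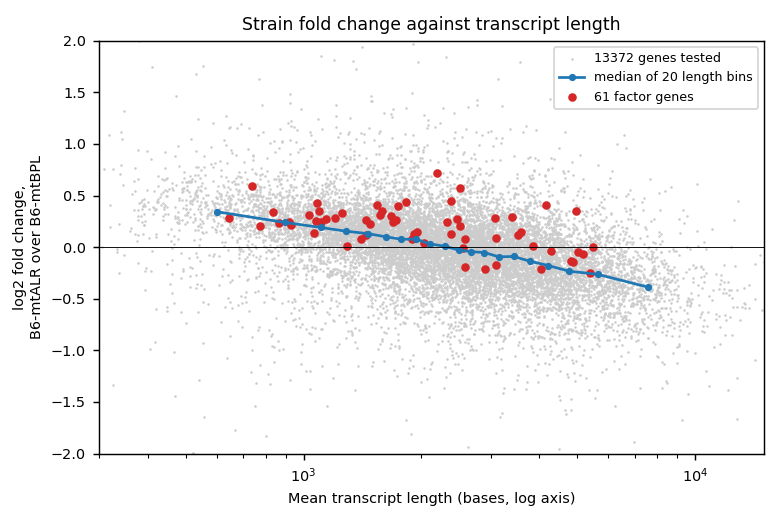
Log2 fold change of B6-mtALR over B6-mtBPL against mean transcript length (log axis) for all 13372 genes tested (grey), with the median of 20 length bins (blue) and the 61 factor genes (red). The axis stops at 2 on either side, and the blue line falls with length while most red points lie on or above it.

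With each mouse's trend on length removed, 49 of the 61 factor genes had a fold change above 0, against 50.9% of all genes, and the median was 0.14, against 0.0059 for all. Of the 50 above 0 before the correction, 42 remained so and 8 turned below 0, while 7 of the others turned above it. None of the 61 passed the adjusted threshold in edgeR after the correction, where 11 of 13372 genes passed. An unadjusted p under 0.05 was reached by 10 of the 61, near the share of 15% among all genes. DESeq2 on the uncorrected counts passed 5 of the 61, Eef1b2, Eif2s2, Eef1g, Eif3e and Eif4a2, all higher, where it passed 9.13% of genes with an adjusted value. In TPM, which the authors' software scales by effective length, the summed level of the 65 genes overlapped between the groups. It was 8514 to 9859 in B6-mtALR of 3 months and 9128 to 10391 in B6-mtBPL. Eef1a1 held 45.7% of the level of the 65 genes and the sums carry no age term, so they cannot show the direction of most genes.

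**Figure D4:**
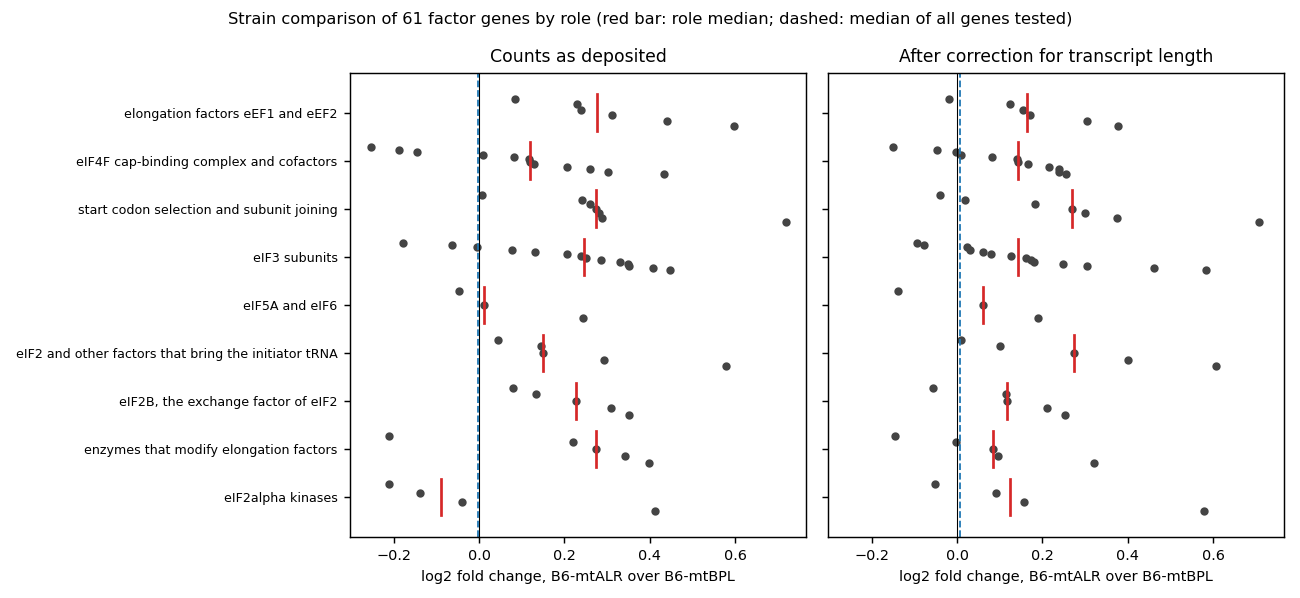
Log2 fold change of B6-mtALR over B6-mtBPL for 61 factor genes by role (points), with the median of each role (red bar) and of all genes tested (dashed line), from the counts as deposited (left) and after the correction for transcript length (right). On the left 8 of 9 role medians are above 0 and that of the eIF2alpha kinases is -0.09, and on the right all 9 are above 0.

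All 6 tested genes grouped with eEF1 and eEF2 by name had fold changes above 0, with a median of 0.28, and Eef1b2 was the only one that passed. With the correction for length 5 of the 6 lay above 0, with a median of 0.16. Eef1g, the gamma subunit of eEF1B, had 171, 189, 166 and 173 CPM in B6-mtALR replicates 4 to 7 and 138, 120, 168 and 159 in B6-mtBPL replicates 1 to 4. The groups overlapped, with B6-mtBPL replicate 3 inside the B6-mtALR range, and the log2 fold change was 0.44 ± 0.11 with an edgeR adjusted p of 0.0688. Of the 31-base words of Eef1g transcripts, 47.5% also occur in transcripts of other genes, mainly the pseudogene Gm4366, which was listed at 1.07 TPM. The shares were 44.9% for Eef1a1, 38.7% for Eif3e and 35.1% for Eif2s3x, whose main partners are also pseudogenes, listed at 0 to 3.08 TPM. The values of these 4 genes rest on how the software split such reads. Eef1a1 had 5169, 5466, 4729 and 4742 CPM in B6-mtALR and 4363, 4144, 5488 and 4994 in B6-mtBPL, and its log2 fold change of 0.24 ± 0.12, or 0.15 corrected for length, had an edgeR adjusted p of 0.273. Eef2 overlapped fully between the groups, at 1396 to 1728 and 1417 to 1796 CPM, with a log2 fold change of 0.08 ± 0.12 that was 0.17 corrected for length and -0.04 without the age term.

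Among the factors that bring the initiator tRNA, all 5 tested genes had fold changes above 0. Eif2s2 had 107, 92.8, 118 and 101 CPM in B6-mtALR replicates 4 to 7 and 73.6, 66.9, 75.1 and 90.2 in B6-mtBPL replicates 1 to 4. The groups did not overlap, by a small margin between 92.8 and 90.2, and the log2 fold change was 0.58 ± 0.13 with an edgeR adjusted p of 0.0567. Unlike that of Eef1b2 this fold change did not shrink with the correction for length, where it was 0.61 with an adjusted p of 0.114. The partner subunits had smaller values, with log2 fold changes of 0.29 ± 0.15 for Eif2s1 and 0.15 ± 0.14 for Eif2s3x, and edgeR adjusted p of 0.287 and 0.554. Corrected for length these were 0.40 and 0.27. The 5 genes of eIF2B had fold changes between 0.08 and 0.35, none with an adjusted p under 0.05. Their median was 0.23, or 0.12 with the correction for length, where 4 of the 5 lay above 0.

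Of the 14 eIF3 genes, 11 had fold changes above 0 and none passed. Eif3e, Eif3h and Eif3i, with log2 fold changes of 0.41 ± 0.13, 0.33 ± 0.12 and 0.35 ± 0.13, had edgeR adjusted p of 0.108, 0.146 and 0.152, and their groups overlapped. With the correction for length these fold changes were 0.30, 0.17 and 0.16. Eif3m had 60.6, 57.4, 61.2 and 54.8 CPM in B6-mtALR of 3 months against 50.6, 45.3, 53.7 and 54.0 in B6-mtBPL, which do not overlap, and a log2 fold change of 0.29 ± 0.11 (edgeR adjusted p = 0.166), or 0.13 corrected for length. Eif3j1 did not overlap either, at 21.9 to 27.1 against 18.5 to 21.5 CPM, with a log2 fold change of 0.35 ± 0.13 and an edgeR adjusted p of 0.159, or 0.58 corrected for length. Of the 31-base words of Eif3j2, 94% also occur in Eif3j1, and 38.1% of those of Eif3j1 occur in Eif3j2. The split of reads between these 2 genes is therefore uncertain. Eif3c, of the eIF3 core, lay on the other side at 105 to 123 against 125 to 135 CPM (log2 fold change -0.18 ± 0.11, edgeR adjusted p = 0.382), or -0.09 corrected for length. It was named after its values were seen.

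The eIF4F genes were divided. Eif4e had 53.7, 47.2, 61.8 and 43.0 CPM in B6-mtALR of 3 months and 41.1, 35.0, 38 and 42.9 in B6-mtBPL, just short of touching, with a log2 fold change of 0.43 ± 0.16 and an edgeR adjusted p of 0.159, or 0.25 corrected for length. Eif4a2 overlapped, because B6-mtBPL replicate 3 at 262 CPM was the highest of the 8 mice, and had a log2 fold change of 0.30 ± 0.10 with an edgeR adjusted p of 0.133. Eif4g3 was lower in every B6-mtALR mouse of 3 months, at 41.1 to 46.0 against 47.2 to 57.3 CPM, with a log2 fold change of -0.25 ± 0.12 (edgeR adjusted p = 0.240). With the correction for length it was 0.0086. Eif4enif1, which encodes the protein that carries eIF4E into the nucleus, was also lower without overlap, at 20.3 to 25.6 against 26.5 to 28.6 CPM, with a log2 fold change of -0.19 ± 0.12 (edgeR adjusted p = 0.389). Eif4g3 and Eif4enif1 were named after their values were seen.

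All 7 genes grouped under start codon selection and subunit joining had fold changes above 0, or 6 of the 7 with the correction for length, with none past the adjusted threshold. Eif1 had 216, 259, 233 and 231 CPM in B6-mtALR of 3 months and 207, 180, 248 and 250 in B6-mtBPL, which overlap. Its log2 fold change of 0.28 ± 0.12 (edgeR adjusted p = 0.201) became -0.04 with the correction for length. Eif1a had the largest fold change of the 61 genes, 0.72 ± 0.31, but its B6-mtALR values of 109, 77.9, 125 and 53.1 CPM spread over more than the difference from B6-mtBPL at 40.2 to 62.5 CPM (edgeR adjusted p = 0.223). It was named after its values were seen, as was Eef2kmt, the methyltransferase that modifies eEF2, at 8.77 to 10.2 against 6.32 to 8.07 CPM (log2 fold change 0.40 ± 0.15, edgeR adjusted p = 0.171). The 4 eIF2alpha kinases had fold changes from -0.21 to 0.41 and Eif5a had 0.24, or 0.06 corrected for length, and none passed. Of the kinases 1 lay above 0, or 3 with the correction for length.

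Some markers of endothelial and stellate cells differed in the same mice. Of 5 endothelial markers tested, Stab2, Kdr and Oit3 passed as lower in B6-mtALR, with log2 fold changes of -1.36 ± 0.19, -0.78 ± 0.14 and -0.62 ± 0.13, and of 5 stellate cell markers Reln passed, at -1.24 ± 0.17. On each of these 2 lists 4 markers lay below 0 and 1 lay above it, at 0.10 for the endothelial and 0.11 for the stellate list. The summed endothelial markers were 132 to 138 TPM in B6-mtALR of 3 months and 159 to 190 in B6-mtBPL, without overlap, and the stellate markers were 127 to 164 and 159 to 191. The hepatocyte markers overlapped, at 82580 to 89520 and 85030 to 95730 TPM, as did the Kupffer cell, cholangiocyte, lymphocyte and erythroid lists, and no listed marker was at 0 in all mice. With the correction for length the 3 endothelial genes no longer passed and Reln did, at an edgeR adjusted p of 0.0494. The part of these cells in the values of the factor genes was not tested.

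Within B6-mtALR, 3 mice of 5 months were set against 4 of 3 months, and these younger mice also entered the strain comparison. None of 62 tested factor genes passed in edgeR or in DESeq2, where 0.794% of 13343 genes passed in edgeR, and 2 had an unadjusted p under 0.05 (3.23%, against 10.1% of all genes). The median log2 fold change was 0.02 and 34 of 62 genes lay above 0 (54.8%, against 51.7% of all genes). The ages did not overlap for 2 of the 62, Eif4a2 (higher at 5 months) and Eif5a2 (lower), where 9.65% of all genes did not. Eif1 had 350, 362 and 257 CPM at 5 months and 216 to 259 at 3 months, where B6-mtALR replicate 3 fell inside the younger range, with a log2 fold change of 0.47 ± 0.15 and an edgeR adjusted p of 0.268. Eif5a2 stood at 0.267 to 0.463 against 0.563 to 1.01 CPM, but these are few reads, and the log2 fold change of -0.95 ± 0.36 had an edgeR adjusted p of 0.367. Eif5a2 was named after its values were seen.

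Within B6-mtBPL, 2 mice of 4 months were set against 2 of 3 months. None of 61 tested factor genes passed in edgeR or DESeq2, where 0.118% of 13615 genes passed in edgeR, and 5 had an unadjusted p under 0.05 (8.2%, against 10.7%). Fold changes were above 0 for 41 of 61 genes, with a median of 0.09, against 50.9% and 0.0055 over all genes. The pairs did not overlap for 30 of 61 genes, 25 of them higher at 4 months (41%), where 43.1% of all genes did not overlap and 21.6% were higher. Eef1b2 was at 164 and 163 CPM at 4 months and at 134 and 122 at 3 months, with a log2 fold change of 0.36 ± 0.12 (edgeR adjusted p = 0.403). The B6-mtBPL mice of 3 months were thus the low pair in this comparison and in that of the strains, which share them. Eef1g, Eif4a2 and Eif1 lay in the same direction, with log2 fold changes of 0.35, 0.33 and 0.37, and Eif2ak2 in the other, at -0.30, all with edgeR adjusted p of 0.403 to 0.438. Eif2ak2 was named after its values were seen.

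Around the factors themselves, 7 lists of regulators and partner pathways held 61 genes, of which 60 were tested between the strains. None passed, where 2.38% of all genes tested did. Fold changes were above 0 for 42 of the 60, against 49.6% of all genes. With the correction for length they were above 0 for 43, against 50.9% of all genes. The 9 mitochondrial translation factors all had fold changes above 0, between 0.02 and 0.26, with none under an unadjusted p of 0.05. The 11 tested genes of the integrated stress response, the programme that follows eIF2alpha phosphorylation, had a median of 0.35 with 9 above 0, and the 9 enzymes of eIF5A hypusination and eEF2 diphthamide synthesis a median of 0.21 with 7 above 0. The 12 genes of mTORC1 and MNK signalling had a median of -0.07, the 8 of termination and recycling 0.05, the 8 of poly(A) binding 0.18 and the 3 eIF4E-binding proteins 0.03. With the correction for length several of these medians moved or turned. Those of mTORC1 and MNK signalling and of the eIF4E-binding proteins turned to 0.11 and -0.20, with 9 of 12 and 1 of 3 genes above 0. Those of the hypusine and diphthamide enzymes, the mitochondrial factors and the stress response were 0.09, 0.05 and 0.24, and those of termination and poly(A) binding 0.09 and 0.23.

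Regulators of eIF4E differed between ages where eIF4E itself did not pass. Mknk2, which encodes a kinase that phosphorylates eIF4E, had 193, 132 and 180 CPM in B6-mtALR of 5 months and 49.1, 71.0, 47.6 and 60.1 at 3 months. In B6-mtBPL it had 209 and 165 CPM at 4 months and 51.7 and 56.6 at 3 months. The older mice were above all younger ones in both strains, with log2 fold changes of 1.57 ± 0.18 and 1.79 ± 0.16 and edgeR adjusted p of 0.00401 and 0.0341. In B6-mtBPL the call was lost without replicate 1 or 2, at an adjusted p of 0.0867 and 0.0724. Eif4ebp3, which encodes an inhibitor that competes with eIF4G for eIF4E, had 24.6 and 24.2 CPM at 4 months and 4.13 and 3.34 at 3 months in B6-mtBPL, with a log2 fold change of 2.71 ± 0.16 (edgeR adjusted p = 0.0196). In B6-mtALR it had 31.5, 8.46 and 31.5 CPM at 5 months against 4.22 to 9.0, with replicate 2 inside the younger range, and a log2 fold change of 1.80 ± 0.41 (edgeR adjusted p = 0.0917). Without replicate 2 it was 2.19, with an adjusted p of 0.00218. These were the only 2 genes of the 7 lists to pass in either age comparison, they were named after their values were seen, and the other eIF4E-binding protein genes, Eif4ebp1 and Eif4ebp2, did not pass. The ages were unequal between the strains, and age cannot be told apart from anything else that the mice of an age shared.

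Of the 60 genes above 1 TPM, 4 had under 50% of their TPM on annotated coding transcripts. Eif1 had 26.5% ± 2.61 (SD, n = 11) there and 73.5% on 2 short processed transcripts of 383 and 447 bases, Eif1-202 and Eif1-203. Eef1b2 had 45.2% ± 3.30 on coding transcripts and 53.5% on transcripts annotated as targets of nonsense-mediated decay, of which Eef1b2-205 alone held 49.8%. Eif1ax had 72.2% on the retained-intron transcript Eif1ax-202 of 416 bases, and Eif5b had 59.7% on retained-intron transcripts. TPM divides by length, so a short transcript that overlaps a coding one can take a large share from few reads of 75 bases.

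**Figure D5:**
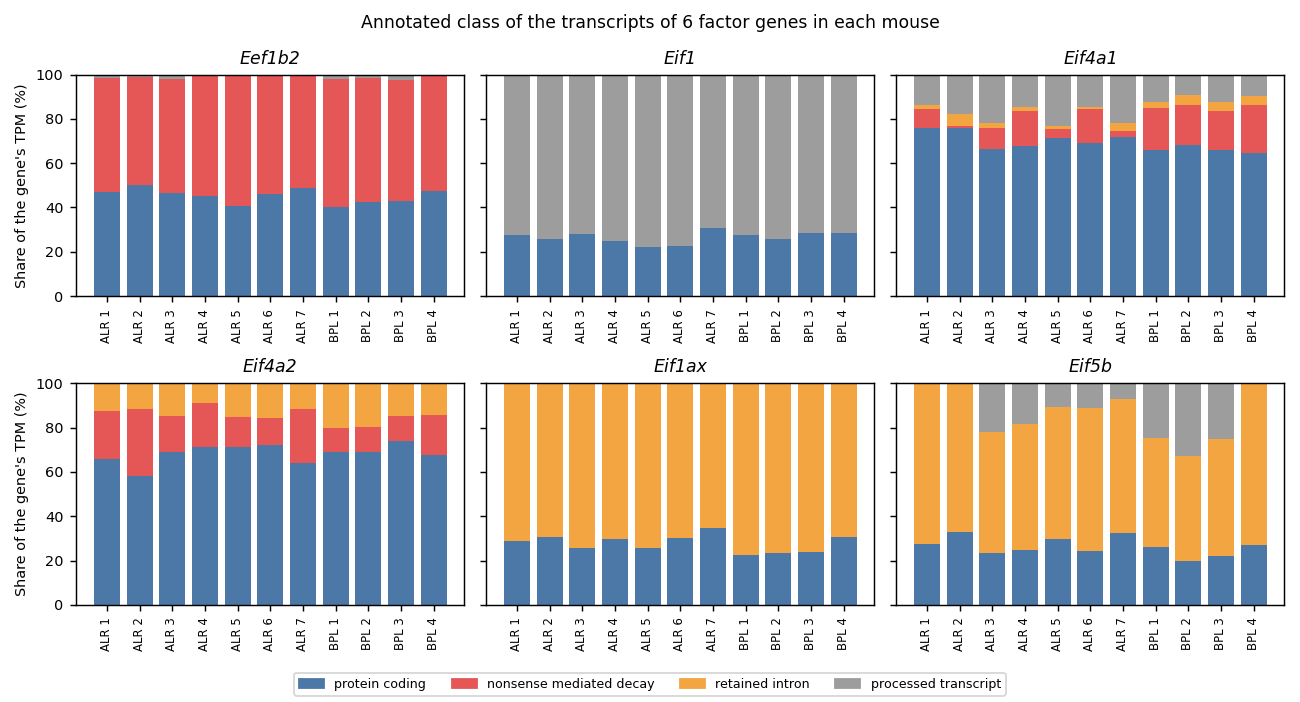
Share of the TPM of 6 factor genes by the annotated class of their transcripts (stacked bars, percent) in each of 11 mice, named by strain and replicate. Eif1 has 22.0% to 30.9% on coding transcripts and Eef1b2 40.3% to 50.2%, and the nonsense-mediated decay share of Eif4a1 is larger in the 4 B6-mtBPL mice (17.9% to 21.9%) than in the 7 B6-mtALR mice.

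Transcript shares were compared, without a test, for the 81 transcripts with a mean above 3 TPM that held 8% to 92% of the TPM of their gene. For 6 of these, in 5 genes, the 4 B6-mtALR mice of 3 months did not overlap with the 4 B6-mtBPL mice. This was 7.41%, near the 7.51% of 9041 such transcripts of all genes, so the count is no result about the factor genes. The values of the 6 are given as a description. In Eif4a1, the nonsense-mediated decay transcript Eif4a1-201 held 9.32% (2.64 to 15.6) in B6-mtALR and 19.1% (17.9 to 21.9) in B6-mtBPL. The short Eif4a1-203 held 11.6% (9.71 to 14.3) and 4.02% (2.32 to 4.75). The B6-mtALR mice of 5 months, at 1.20% to 9.29% and 9.90% to 13.7%, were on the side of their strain for both. Of the 31-base words of Eif4a1, 25.6% also occur in the pseudogene Eif4a-ps4, to which 99.5 TPM were assigned, so these shares are uncertain. The coding transcript Eif4a2-203 held 50.2% (48.2 to 52.3) in B6-mtALR of 3 months and 43.6% (40.5 to 47.1) in B6-mtBPL, and the retained-intron Eif4g1-210 20.1% (15.8 to 28.2) and 10.1% (7.55 to 12.7). Eef1a1-201 held 91.0% and 86.9%, and Eif2ak3-201 93.2% and 82.8%. These transcripts were named after their values were seen.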

How the data were processed

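RNA was taken from the livers of 11 female mice, poly-A selected and sequenced as single 75-base reads. Per the labels, the authors quantified transcripts with kallisto 0.44.0 against mm10 and deposited for each mouse a table of estimated counts (expected counts), TPM, length and effective length per transcript. The extraction protocol mentions strains that the strain fields do not, so mice were grouped by the strain fields. The 65 members and all gene lists were chosen with earlier results of these data known.

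Transcripts were matched to GENCODE release M21 (95213 of 96626, holding at least 99.6% of each mouse's counts), and estimated counts and TPM were summed per gene. Counts were rounded to whole numbers. Genes were kept if they had at least 15 counts in all. They also had to reach the CPM of 10 counts at the median depth, in as many mice as the smallest group held. Counts were scaled by TMM and tested in edgeR 4.0.16 (quasi-likelihood, R 4.3.3). Benjamini-Hochberg adjustment ran over all genes tested, with a threshold of 0.05. The strain model held age in months and strain over 8 mice, the age models held age group within a strain, and positive fold changes mean higher in B6-mtALR or in older mice. CPM were scaled over all 11 mice. The length correction removed each mouse's lowess trend (span 0.3) of log2 CPM on log10 transcript length. DESeq2 1.42.0, limma 3.58.1, other scalings, filters, covariates and leaving out each mouse were alternatives. The model was tested on simulated counts, where it recovered 70 of 100 genes changed by 1 log2 unit and 96 of 100 changed by 2 with 11 false calls, in the strain design of 13243 genes. Differences as small as most of those reported here lie below that range. The simulated counts held no trend on transcript length and no age effect. The false calls therefore cannot measure the error of the test where such trends are present.

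The genes named were those with an adjusted p under 0.05 in a comparison, the 10 with the smallest p between the strains, Eef1a1, Eef2, Eif1, Eif4e, Eif2s1, Eif2s3x and Eif2s3y, and any member for its level. The Eef1aknmt entry of the list of modifying enzymes had no gene of that name in the annotation. Nothing states whether the mice shared litters or cages, so p-values measure the spread between these mice. Amino acid sequences were not used here.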

Additional observations from a re-analysis of the deposited data

Results flagged for a closer look

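Eif3j1 was the only gene with a mouse set apart within its group of 4. B6-mtALR replicate 7 had 21.9 CPM, against 26.1 to 27.1 in the other B6-mtALR mice of 3 months, and its gap to the nearest of them was just past Dixon's 95% critical value on the log2 scale. The strain fold change of Eif3j1 is larger without this mouse. In all, 44 groups of 4 mice were examined for 22 genes, and chance sets apart about 1 in 20 groups.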

How the results depend on the processing

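Between the strains, the number of genes past the adjusted threshold was 318. It was 1055 with DESeq2, 198 without the age term, 117 with effective length as an offset, 11 with the length correction, 14 in all 11 mice with age and 0 in all 11 mice without age. Leaving out each mouse in turn gave 0 to 572 genes, with 572 without B6-mtALR replicate 6, 8 without replicate 4, 7 without replicate 5, 2 without B6-mtBPL replicate 1 and 0 without B6-mtBPL replicate 2. The number of factor genes past it was 1. It was 5 with DESeq2 and 0 with the length correction, without the age term, in all 11 mice with or without age, and with the effective length offset, and 0 to 1 when a mouse was left out. Another scaling, limma-trend, other filters, coding transcripts alone and leaving out mitochondrially encoded genes each kept 1. The number of factor genes with a fold change above 0 was 47 to 52 in every alternative run. Without B6-mtBPL replicate 2 their median fell from 0.23 to 0.11, and 2 of 62 had an unadjusted p under 0.05, against 10.3% of all genes.

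The fold change of Eef2 turned to -0.0403 without the age term and to -0.0208 in all 11 mice with age, that of Eif1 to -0.0409 with the length correction and that of Eif4g3 to 0.0086 with it, and the cause was not tested.

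Whether replicate numbers pair the mice is not stated. With strain means removed and age left in, the correlations of same-numbered mice were -0.218, -0.14, 0.111 and -0.108. Same-numbered mice of the 2 strains differed in age, so these values cannot decide it. A block for the replicate number in the 11-mouse fit left 0 genes and 0 factor genes past the threshold in edgeR. At an unadjusted p under 0.05 there were 1185 of 13550 genes (8.75%) and 6 of 62 factor genes. Adding the length correction to this block also left 0 and 0, with 766 genes (5.65%) and 5 of 62 factor genes at an unadjusted p under 0.05.

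Within B6-mtALR the 106 genes became 303 with DESeq2 and 38 to 121 when a mouse was left out, with 44, 38 and 59 without replicates 3, 4 and 5 and 69 without replicate 1. Within B6-mtBPL the 16 became 187 with DESeq2, 8 with the length correction and 7 to 332 when a mouse was left out, with 332 without replicate 4, 269 without replicate 3, 10 without replicate 2 and 7 without replicate 1. No factor gene passed in any of these. Eef1a2, Eif2s3y, Eif4e1b and Eef1akmt3 had too few counts for a test between the strains.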
